A study of Mus musculus with 8 samples.

Results

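The 6 genes followed were the adipokine genes Adipoq, Retn, Apln, Nampt and Lep, and Mrap, an adipocyte gene of the melanocortin hormone system. They were taken by symbol, through the Ensembl identifiers of the count table, with no threshold on their levels, and they make up 6 of its 49585 genes. RNA was sequenced from 8 libraries of 3T3-L1, an established clonal mouse line of preadipocytes that turns into fat-storing cells when given an adipogenic cocktail. The 4 groups of 2 libraries were induced spheroids (3D induced), uninduced spheroids (3D uninduced), induced flat cultures (2D induced) and uninduced flat cultures (2D uninduced), all taken on day 7 of culture in high-glucose medium with calf serum. Spheroids were started as hanging drops of 28 µL with about 20000 cells, and part of their medium was exchanged daily. Induced cultures of either format had 250 nM dexamethasone and 10 nM triiodothyronine for the first 2 days, and 10 µM troglitazone with 1 µg/ml insulin on each of 7 days. Uninduced cultures had none of the 4 agents, so no single agent can be set apart, and all groups come from 1 cell line.

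Adipokines are proteins that fat cells release into the blood to act on other tissues. Adiponectin, the product of Adipoq, circulates as multimers that raise insulin sensitivity and acts through the receptors AdipoR1 and AdipoR2, while resistin, from Retn, is released by mouse fat cells and opposes insulin action in mice. Leptin, from Lep, reports the size of the fat store to the brain. Apelin, from Apln, is a vasoactive peptide that acts through the receptor encoded by Aplnr. Nampt encodes the rate-limiting enzyme of NAD salvage from nicotinamide, which is also found outside cells. Mrap encodes the accessory protein that carries the ACTH receptor, encoded by Mc2r, to the cell surface. Adipoq, Retn and Mrap are genes of the mature fat cell, whereas Nampt is used by nearly all cells.

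The start regions of these genes differed in base composition, and 4 of them are printed because they span the range between the adipocyte-restricted genes and the broadly used Nampt. They are RefSeq sequences of build GRCm38.p6, from 250 bases before to 50 bases after the start, and 5 of the 6 genes had an entry. The windows are placed on the start that RefSeq gives, which for Nampt lies 790 bases inside the gene as GENCODE annotates it and for the other 4 at most 1 base from the GENCODE start. Capitals mark matches on either strand to CCAAT (the CCAAT box), TTNNGNAA (the C/EBP consensus), AGGTCA (a nuclear receptor element), ACGTG (the hypoxia response core) and GGGCGG (the GC box).
Adipoq, chr16:23146286-23146585, plus strand: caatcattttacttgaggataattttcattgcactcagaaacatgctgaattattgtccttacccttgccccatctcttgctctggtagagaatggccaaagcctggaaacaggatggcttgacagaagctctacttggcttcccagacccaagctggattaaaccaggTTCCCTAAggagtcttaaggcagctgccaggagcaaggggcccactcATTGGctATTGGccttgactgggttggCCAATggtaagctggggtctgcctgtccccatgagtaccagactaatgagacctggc
Retn, chr8:3655520-3655819, plus strand: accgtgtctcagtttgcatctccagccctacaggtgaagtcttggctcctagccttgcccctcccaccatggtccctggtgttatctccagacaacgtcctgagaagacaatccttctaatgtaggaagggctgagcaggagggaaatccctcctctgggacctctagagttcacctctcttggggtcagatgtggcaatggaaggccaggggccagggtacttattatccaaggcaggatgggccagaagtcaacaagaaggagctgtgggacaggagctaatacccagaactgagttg
Lep, chr6:29059971-29060270, plus strand: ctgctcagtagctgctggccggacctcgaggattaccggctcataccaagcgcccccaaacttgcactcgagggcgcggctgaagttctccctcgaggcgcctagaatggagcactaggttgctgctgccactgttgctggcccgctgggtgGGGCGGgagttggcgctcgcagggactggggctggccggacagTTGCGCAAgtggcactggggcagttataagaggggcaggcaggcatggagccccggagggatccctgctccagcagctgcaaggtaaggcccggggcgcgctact
Nampt, chr12:32820085-32820384, plus strand: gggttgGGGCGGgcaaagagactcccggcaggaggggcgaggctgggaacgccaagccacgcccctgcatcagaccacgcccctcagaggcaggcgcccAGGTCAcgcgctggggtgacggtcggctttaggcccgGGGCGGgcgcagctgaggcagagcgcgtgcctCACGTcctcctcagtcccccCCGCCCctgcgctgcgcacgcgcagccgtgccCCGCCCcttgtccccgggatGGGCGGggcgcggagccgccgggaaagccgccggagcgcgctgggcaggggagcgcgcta

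The Adipoq window was 50% G or C and held no CG dinucleotide, and the Retn window was 54% G or C with 2 CG dinucleotides. The Apln window was 64% G or C with 15 CG dinucleotides, and the Lep window 66% with 19. The Nampt window was 76.3% G or C with 36 CG dinucleotides, and 97.1% of the 32851 mouse promoter windows had a lower G and C content. The median window was 52.7% G or C with 7 CG dinucleotides. Adipoq and Retn, at or near 0 counts without induction, had the 2 CG-poor windows. Apln and Nampt, expressed in all 4 groups, had CG-rich ones, and so had Lep, which was nearly undetected in all groups.

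Adipoq held 3 matches to CCAAT, found in 37.4% of all windows, and both Adipoq and Lep held 1 match to TTNNGNAA, found in 40.7%. GGGCGG, found in 35.7% of windows, matched 5 times in Nampt and 1 time each in Lep and Apln. AGGTCA, in 16.3% of windows, and ACGTG, in 19.6%, each matched in Nampt. TATAAA, in 13.6% of windows, and the direct repeat of that element bound by PPARG with RXR, in 0.0396%, matched in none of the 5 windows, and none of the 7 motifs matched in Retn. No motif overlapped another in these windows. These matches are letters in a window and not measured binding.

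The libraries held 11839374 to 21169390 counts each, and 15255 genes passed the filter on low counts, among them 5 of the 6 genes. Levels are given as CPM, counts per 1000000 of the scaled library size, and differences were tested with edgeR's quasi-likelihood test with Benjamini-Hochberg adjustment over all 15255 genes. A gene was called where its adjusted p was under 0.05 and its fold change at least 2. The labels do not say that replicates came from separate cultures, so p-values measure only the spread between these libraries. For each gene that spread was pooled over all 8 libraries, and the SEs and p-values of every comparison in that fit rest on it. Beyond counting error, replicates had a coefficient of variation of 0.0467 (2D uninduced), 0.0471 (2D induced), 0.109 (3D uninduced) and 0.308 (3D induced). A pooled spread can thus be too wide for flat cultures and too narrow for induced spheroids. The 2 libraries of 3D induced cells stood apart from each other: 2159 genes had a 2-fold or larger gap within that pair, where the pairs of the other groups had 380 to 561. Reads of 2 genes that overlap ribosomal RNA made up 1.13% of counts in replicate 2 of 3D induced, against 0.106% to 0.279% in the other 7 libraries. The summed level of 8 adipocyte markers was 4081 to 4542 CPM in 3D induced, 1074 to 1435 CPM in 3D uninduced, 10039 to 10516 CPM in 2D induced and 1674 to 1710 CPM in 2D uninduced. Lpl made up most of the uninduced sums, at 987 and 1342 CPM in 3D uninduced and 1601 and 1639 CPM in 2D uninduced. Of the 8 markers, Plin1 and Cd36 were called higher in 3D uninduced than in 2D uninduced cells and 0 were called lower. Of all tested genes 5.42% were called higher there and 4.02% lower. Plin1 was at 5.82 and 8.07 CPM in 3D uninduced cells and 0.0498 and 0 CPM in 2D uninduced cells. The summed level of 8 preadipocyte and fibroblast markers was 2309 to 6517 CPM, 5205 to 6058 CPM, 8112 to 8357 CPM and 14646 to 14778 CPM in the same 4 groups. Among 7 macrophage markers Ptprc and Adgre1 were at 0 counts in all 8 libraries. The summed macrophage markers lay at 14.4 to 25.7 CPM in 3D induced, 15.3 to 22.6 CPM in 3D uninduced, 11.9 to 13.2 CPM in 2D induced and 12.3 to 17.6 CPM in 2D uninduced. Endothelial markers summed to at most 1.93 CPM in any library, with Tie1 at 0 counts throughout. Of 5 adrenal and pituitary markers Cyp17a1 and Chga were at 0 counts throughout. Their sum was 4.45 to 5.21 CPM in 3D induced, 4.20 to 4.73 CPM in 3D uninduced, 1.43 to 1.54 CPM in 2D induced and 1.43 to 1.64 CPM in 2D uninduced. Star, the 1 of the 5 that passed the filter, was called higher in spheroids than in flat cultures, by 1.71 ± 0.27 (SE) on the log2 scale induced (edgeR adjusted p = 0.004231) and 1.53 ± 0.27 (SE) uninduced (edgeR adjusted p = 0.00782). The part of these differences between libraries and markers in the results below was not tested, except where a value without a library is given.

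**Figure D1:**
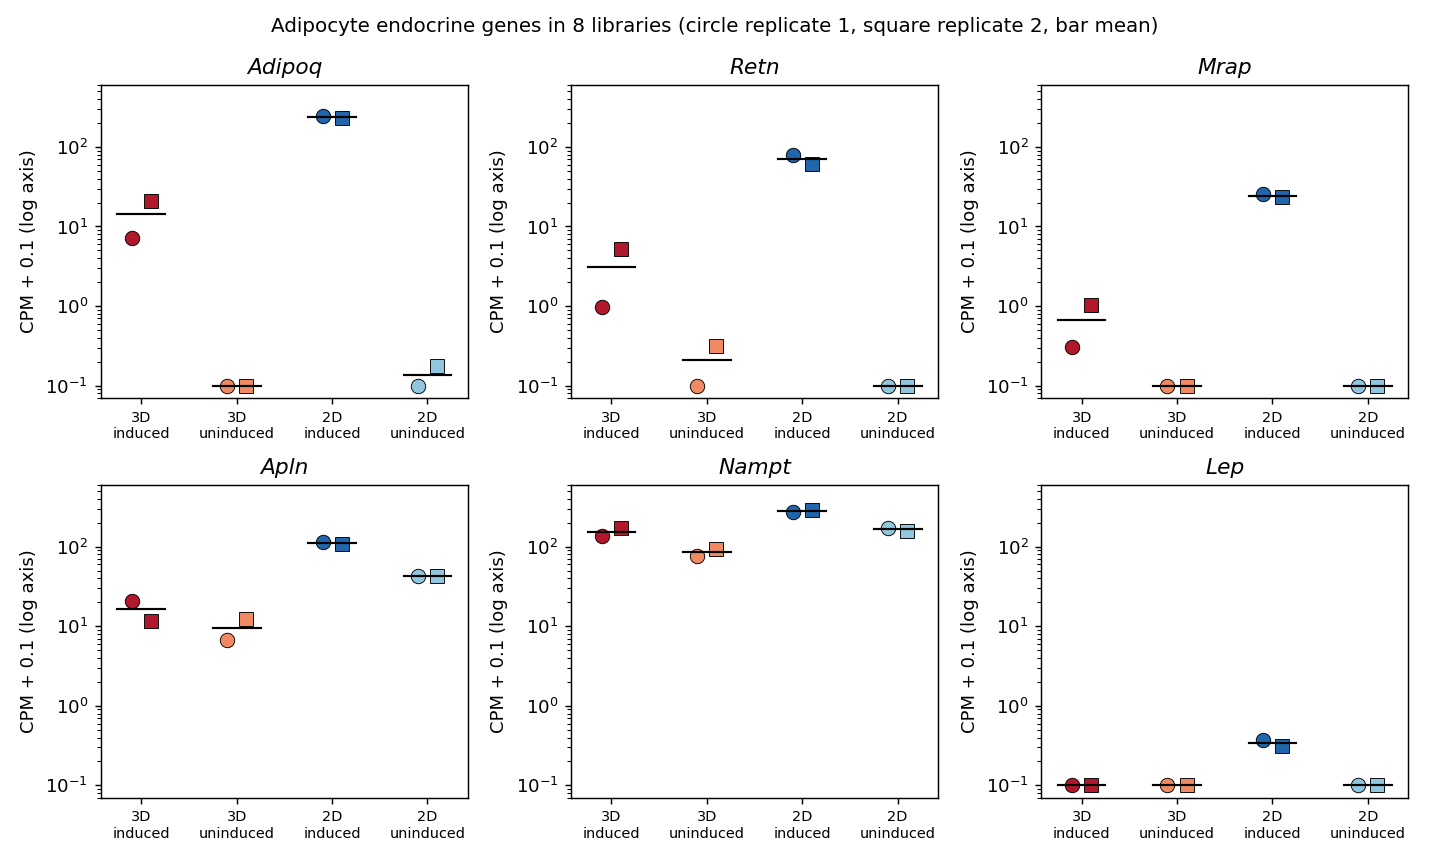
Level of each of the 6 genes in each library, as CPM + 0.1 on a log axis, by group. Circles are replicate 1, squares replicate 2 and bars the mean of 2 libraries. Adipoq, Retn and Mrap sit at or near the bottom in both uninduced groups, and their 3D induced points sit below both 2D induced points, whereas Nampt is high in all 4 groups.

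Adipoq, the gene of adiponectin, is on chromosome 16 from 23146536 to 23158028 on the plus strand of GRCm38, with 4 exon blocks. It was at 7.11 and 21.1 CPM in the 2 libraries of 3D induced cells, from 105 and 360 counts, and at 0 counts in both 3D uninduced libraries. It was at 242 and 230 CPM in 2D induced cells, from 2707 and 3280 counts, and at 0 and 1 counts in 2D uninduced cells. The 3D induced libraries were both above the uninduced libraries of either format and both below the 2D induced libraries, and they differed 2.96-fold from each other, while the 2 flat induced libraries nearly coincided. In bulk RNA, fewer cells that express a gene and less of its RNA per cell cannot be told apart.

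Adipoq rose with induction in 3D (edgeR adjusted p = 0.01785) and in 2D (edgeR adjusted p = 0.000475). In 3D the level was at least 133-fold higher than a floor of 3 counts over the uninduced group, a bound that was 64.7-fold without replicate 2 of 3D induced and 66.9-fold or 66.0-fold without replicate 1 or 2 of 3D uninduced. The call in 3D was lost when only the 2 groups of spheroids were fitted (edgeR adjusted p = 0.231), when genes of low counts were kept (edgeR adjusted p = 0.1334), and without any 1 of the 6 libraries of the other 3 groups (edgeR adjusted p = 0.0586 to 0.1577). It held without either library of 3D induced. Between the induced groups, the spheroids had 6.21% of the flat-culture level (95% counting interval 5.64% to 6.83%). The log2 fold change was -4.05 ± 0.47 (SE), with edgeR adjusted p = 0.00208, and it was -3.48 without replicate 1 and -5.05 without replicate 2 of 3D induced, called both times. All counting intervals and floors here cover counting error only, not the spread between libraries.

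Retn, the gene of resistin, is on chromosome 8 from 3655770 to 3660110 on the plus strand, with 5 exon blocks. It was at 0.880 and 5.15 CPM in 3D induced cells, from 13 and 88 counts, and at 0 and 3 counts in 3D uninduced cells. It was at 77.9 and 61.3 CPM in 2D induced cells, from 872 and 875 counts, and at 0 counts in both 2D uninduced libraries. Both 3D induced libraries lay above both uninduced groups and far below both flat induced libraries, with replicate 2 at 5.85 times replicate 1.

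In 3D, Retn was 28.9-fold higher in induced than in uninduced spheroids (95% counting interval 9.60 to 142, with 3 counts in the uninduced group), which did not pass the test (edgeR adjusted p = 0.1525). That ratio was 46.9 without replicate 1 and 8.01 without replicate 2 of 3D induced, and it was 14.5 without replicate 1 and, as a bound, 14.3 without replicate 2 of 3D uninduced, and Retn was called without replicate 1 of 3D induced (edgeR adjusted p = 5.585e-05). With induction in 2D Retn rose (edgeR adjusted p = 0.00244). Between the induced groups the spheroids had 4.62% of the flat-culture level (3.74% to 5.65%), a log2 fold change of -4.49 ± 0.66 (SE), and Retn was called lower (edgeR adjusted p = 0.00442). The value was -3.74 without replicate 1 and -6.29 without replicate 2 of 3D induced, and the call was lost when genes of low counts were kept (edgeR adjusted p = 0.0527).

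Of the other resistin-family genes of the mouse, Retnla had 3 counts, all in 2D induced cells, and Retnlb and Retnlg had 0 counts in all 8 libraries. Retn was therefore the 1 of 4 listed family members that passed the filter.

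Mrap, whose protein brings the ACTH receptor to the cell surface, is on chromosome 16 from 90738207 to 90749785 on the plus strand, with 5 exon blocks. It was at 0.203 and 0.936 CPM in 3D induced cells, from 3 and 16 counts, and at 0 counts in both 3D uninduced libraries. It was at 25.3 and 23.2 CPM in 2D induced cells, from 283 and 331 counts, and at 0 counts in both 2D uninduced libraries. The spheroid induced values were near the floor of detection, and both were well below the 2 flat induced values.

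In 3D, Mrap was at least 5.43-fold higher in induced spheroids and did not pass the test (edgeR adjusted p = 0.1712). That bound was 8.53 without replicate 1 of 3D induced and 2.73 or 2.70 without replicate 1 or 2 of 3D uninduced, and without replicate 2 of 3D induced both groups were at or under the floor. It did pass in 3D by DESeq2 (adjusted p = 0.01668), with genes of low counts kept (edgeR adjusted p = 0.0001416) and without replicate 1 of 3D induced (edgeR adjusted p = 0.000498). With induction in 2D Mrap rose (edgeR adjusted p = 0.00185). Among the induced groups, spheroids had 2.47% of the flat-culture level (1.48% to 3.90%), which was the lowest such share of the 5 tested genes. The log2 fold change was -5.34 ± 0.52 (SE), with edgeR adjusted p = 0.0021, and it was -4.67 without replicate 1 and -6.84 without replicate 2 of 3D induced, called both times.

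The receptor partner of Mrap, Mc2r, was at 0.203 and 0.468 CPM in 3D induced cells and 0.221 and 0.291 CPM in 3D uninduced cells, from 3 to 8 counts a library. It was at 2.95 and 3.29 CPM in 2D induced cells and 0.299 and 0.452 CPM in 2D uninduced cells. Only the flat induced libraries stood clear of the rest. With induction Mc2r was not called in 3D (log2 fold change 0.40 ± 0.64 SE, edgeR adjusted p = 0.8798) and rose in 2D (3.06 ± 0.50 SE, edgeR adjusted p = 0.009585). It was lower in 3D induced than in 2D induced cells (-3.16 ± 0.50 SE, edgeR adjusted p = 0.004119), and called at -3.89 without replicate 2 of 3D induced. The difference between the 2 induction effects was not called (edgeR adjusted p = 0.4351).

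Mc5r, a melanocortin receptor that needs no Mrap to signal, was at 1.42 and 1.70 CPM in 3D induced cells and 0.0737 and 0.145 CPM in 3D uninduced cells. Its level was 3.04 and 2.94 CPM in 2D induced cells and 0.149 and 0.301 CPM in 2D uninduced cells. Both induced groups lay above both uninduced groups. Mc5r rose in 3D, 14.3-fold by summed counts (95% counting interval 4.62 to 71.6, with 3 counts in the uninduced group, edgeR adjusted p = 0.02923), and in 2D, 14.2-fold (6.57 to 36.5, edgeR adjusted p = 0.003831). With only the spheroids fitted, 0 of 14708 tested genes were called with induction, so the Mc5r call in 3D was lost. The difference of the 2 induction effects of Mc5r was -0.02 ± 0.70 (SE) on the log2 scale (edgeR adjusted p = 0.9998). The paralog Mrap2 had 4 counts in all 8 libraries together, and Mc1r, Mc3r, Mc4r and Pomc did not pass the filter.

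Apln, the gene of apelin, is on chromosome X from 48025146 to 48034853 on the minus strand, with 3 exon blocks. It was at 20.6 and 11.7 CPM in 3D induced cells and at 6.64 and 12.3 CPM in 3D uninduced cells. It was at 113 and 106 CPM in 2D induced cells and at 42.1 and 42.5 CPM in 2D uninduced cells. The 2 spheroid groups overlapped, the 2 flat groups did not, and every spheroid library was below every flat library.

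Apln was lower in spheroids than in flat culture with and without induction: by a log2 fold change of -2.77 ± 0.32 (SE) among induced cultures (edgeR adjusted p = 0.00139) and of -2.16 ± 0.32 (SE) among uninduced cultures (edgeR adjusted p = 0.0043). Without replicate 1 or replicate 2 of 3D induced the induced value was -3.22 or -2.41. With induction in 3D the log2 fold change of Apln was 0.77 ± 0.33 (SE) and not called (edgeR adjusted p = 0.3931), but it was called, at 1.12, without replicate 2 of 3D induced (edgeR adjusted p = 0.04245) and was 0.31 without replicate 1. In 2D Apln rose by 1.38 ± 0.30 (SE) on the log2 scale (edgeR adjusted p = 0.03045), a call that was lost without any 1 of the 4 flat libraries (edgeR adjusted p = 0.1738 to 0.2284), where the log2 fold change was 1.29 to 1.38. The difference of the 2 induction effects was -0.61 ± 0.44 (SE) and not called (edgeR adjusted p = 0.8223).

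Of the other apelin pathway genes, the neprilysin gene Mme was tested and was called in no comparison of all 8 libraries. Mme had 9 to 28 counts a group. Its log2 fold change between induced groups was -3.78 without replicate 1 and -0.74 without replicate 2 of 3D induced. The apelin receptor gene Aplnr was at 0 to 6 counts a library, and Apela, of a second ligand of that receptor, had 0 counts in all 8 libraries.

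Nampt is on chromosome 12 from 32819545 to 32853349 on the plus strand, with 13 exon blocks, and overlaps the noncoding gene Gdap10 on the same strand. It was at 137 and 170 CPM in 3D induced cells and 77.2 and 92.7 CPM in 3D uninduced cells. It was at 276 and 292 CPM in 2D induced cells and 173 and 156 CPM in 2D uninduced cells. The 3D induced and 2D uninduced groups overlapped, and the other groups were apart.

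Nampt was 1.81-fold higher with induction in 3D (log2 fold change 0.85 ± 0.15 SE, edgeR adjusted p = 0.03904) and 1.72-fold higher in 2D (0.79 ± 0.14 SE, edgeR adjusted p = 0.01588). Spheroids had a log2 fold change of -0.89 ± 0.14 (SE) against flat culture among induced cells (edgeR adjusted p = 0.00456) and of -0.96 ± 0.15 (SE) among uninduced cells (edgeR adjusted p = 0.00456). All 4 differences were below 2-fold and hence not called, although their adjusted p was under 0.05. Nampt passed 2-fold and was called with induction in 3D without replicate 1 of 3D induced (log2 fold change 1.00), between induced groups without replicate 2 of 3D induced (-1.05), and between uninduced groups without replicate 2 of 3D uninduced (-1.10) or of 2D uninduced (-1.05). The induction effects differed between formats by 0.07 ± 0.20 (SE) on the log2 scale (edgeR adjusted p = 0.9792). Of the other listed genes of NAD synthesis and use, none was called with induction in either format in the fit of all 8 libraries. Sirt1, an NAD-using deacetylase, was the 1 called gene of 11 tested in the list between induced groups, against 12.4% of all tested genes. Its log2 fold change was 1.12 ± 0.27 (SE, edgeR adjusted p = 0.01997). It was 1.48 without replicate 1 of 3D induced and 0.67, below the 2-fold limit, without replicate 2. That of Nadk2 between induced groups was 1.35 without replicate 1 and -0.33 without replicate 2 of 3D induced.

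Lep is on chromosome 6 from 29060220 to 29073877 on the plus strand, with 4 exon blocks. It was at 0 counts in both 3D induced libraries, in both 3D uninduced libraries and in both 2D uninduced libraries, and had 3 counts in each 2D induced library, or 0.268 and 0.210 CPM. With a floor of 3 counts over a group at 0, Lep was at least 2.50-fold lower in 3D induced than in 2D induced cells, 0 against 6 counts, a bound that covers counting error in the first group only. Lep was not tested, and the receptor gene Lepr, at 1 to 17 counts a library, was called in no comparison of all 8 libraries; without replicate 1 of 3D induced it was called between induced groups (log2 fold change -3.33 ± 1.17 SE, edgeR adjusted p = 0.02775). Of the 5 tested genes of leptin signalling none was called with induction in either format or between the induced groups. Stat3 (log2 fold change 1.05 ± 0.11 SE, edgeR adjusted p = 0.001584) and Socs3 (1.22 ± 0.14 SE, edgeR adjusted p = 0.001978) were called higher in uninduced spheroids than in uninduced flat cultures, against 5.42% of all tested genes. Stat3 was at 296 and 249 CPM in 3D induced and 158 and 164 CPM in 2D induced cells. Socs3 was at 49.9 and 59.0 CPM in 3D induced and 27.7 and 30.2 CPM in 2D induced cells. Without replicate 1 or 2 of 3D induced, their log2 fold changes between induced groups were 0.63 or 0.88 for Stat3 and 1.03 or 0.78 for Socs3.

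Of the 6 genes, 1 was called with induction in 3D, Adipoq, against 0.911% of all tested genes in either direction, 0.583% higher and 0.328% lower, and the count changed when 1 library was left out. It was 4 without replicate 1 of 3D induced, where 7.73% of all tested genes were called, and 2 without replicate 2, where 3.11% were. Without any 1 of the other 6 libraries it was 0, where 0.151% to 0.32% were called. With induction in 2D, 4 were called higher (Adipoq, Retn, Mrap and Apln), while 4.52% of all tested genes were called in either direction, 3.17% higher and 1.34% lower. Between formats, 4 were called lower in induced spheroids (the same 4 as with induction in 2D), against 12.4% of all tested genes in either direction, 6.94% higher and 5.46% lower. In uninduced spheroids 1 was called lower than in uninduced flat cultures, Apln, against 9.44% of all tested genes in either direction, 5.42% higher and 4.02% lower. The differences between the 2 induction effects were called in 0 of the 5 tested genes by edgeR, where 0.38% of all tested genes were called, 0.0393% with a larger and 0.341% with a smaller effect in 3D. None had an unadjusted edgeR p under 0.05, DESeq2 called 0 with 2 at an unadjusted p under 0.05, and limma-voom called 0 with 3. For Adipoq, Retn and Mrap, with uninduced counts at or near 0, the SE derived from the test statistic was 11.8, 3.97 and 11601 on the log2 scale. With such counts this SE cannot be read as an error of the difference, and the test cannot decide it. Without replicate 1 or replicate 2 of 3D induced, Retn was called in that test. The same limit holds for these calls, as the uninduced counts of Retn stayed at or near 0.

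Per kilobase of exon, Adipoq led in 2D induced cells at 171 ± 6.26 CPM per kb (SD, n = 2), ahead of Nampt at 56.2 ± 2.35, Retn at 44.1 ± 7.45, Apln at 34.9 ± 1.58, Mrap at 15.3 ± 0.944 and Lep at 0.0713 ± 0.0122. No neighbours in that order had overlapping libraries. In 3D induced cells Nampt led at 30.3 ± 4.59 CPM per kb (SD, n = 2), followed by Adipoq at 10.2 ± 7.15, Apln at 5.14 ± 2.01, Retn at 1.91 ± 1.91 and Mrap at 0.360 ± 0.328. Adipoq overlapped with Apln there, and Retn with Mrap. In both uninduced groups Nampt led at 16.8 ± 2.17 in 3D and 32.6 ± 2.44 CPM per kb in 2D, ahead of Apln at 3.00 ± 1.27 and 13.4 ± 0.101, with the other 4 genes at or near 0.

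As a share of the flat-culture level, Adipoq, Retn and Mrap were lower in both libraries of 3D induced cells than 7 of the 8 adipocyte markers, and overlapped the values of Cidec. This is a description of 2 libraries, and the difference from the markers was not tested. The lipid-droplet gene Cidec was at 3.40% and 13.1% of the 2D induced mean in the 2 libraries of 3D induced cells, the transcription factor gene Cebpa at 15.5% and 13.5%, and Fabp4, the fatty acid carrier gene, at 22.0% and 45.6%. Pparg, the master regulator gene of fat cells, was at 46.5% and 44.5%, and Plin1, of the droplet coat, at 45.5% and 42.1%. Adipoq was at 3.01% and 8.94%, which overlaps Cidec and lies below both values of the other markers named. Retn was at 1.26% and 7.40%, Mrap at 0.838% and 3.86%, Apln at 18.8% and 10.7% and Nampt at 48.2% and 59.8%. Gpd1 and G0s2, outside the markers and the genes followed, were low in spheroids as well. Gpd1 was at 9.91 ± 5.60 CPM in 3D induced and 378 ± 15.5 CPM in 2D induced cells (SD, n = 2). G0s2 was at 7.75 ± 1.29 and 119 ± 12.1 CPM in the same groups. Both were picked, as described below, for profiles like those of Adipoq, Retn and Mrap.

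**Figure D2:**
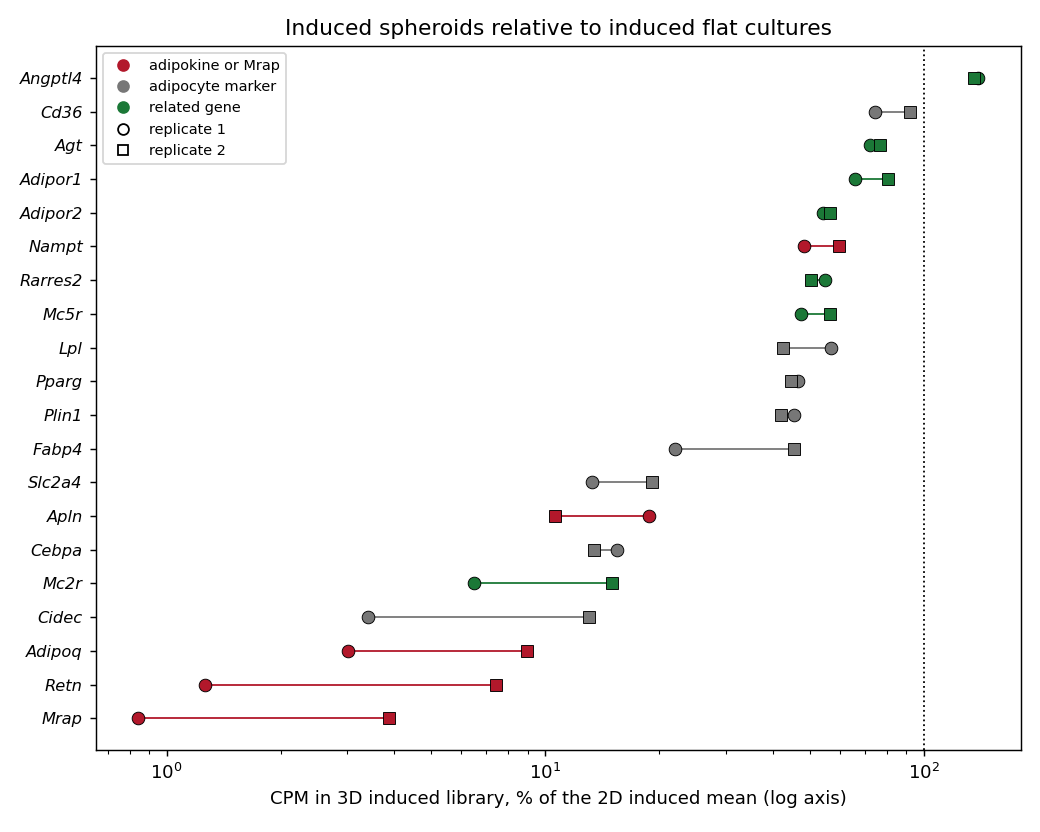
Level in each library of 3D induced cells as a percentage of the 2D induced mean, on a log axis, for 5 of the 6 genes, 8 adipocyte markers and 7 related genes, ordered by mean. Circles are replicate 1 and squares replicate 2, and the dotted line marks 100%. Of the genes plotted, Mrap, Retn and Adipoq sit at the bottom with their 2 libraries far apart. Nampt, Pparg and Plin1 sit near the middle with theirs close.

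Within single libraries, where scaling cancels, Adipoq counts were 6.13% and 19.6% of Plin1 counts in 3D induced cells, against 95.1% and 89.9% in 2D induced cells, and 0.844% and 1.21% of Fabp4 counts, against 5.98% and 6.36%. Retn counts were 12.4% and 24.4% of Adipoq counts in 3D induced cells and 32.2% and 26.7% in 2D induced cells. Mrap counts were 2.86% and 4.44% of Adipoq counts in 3D induced cells and 10.5% and 10.1% in 2D induced cells. For each of these 4 ratios both spheroid values lay below both flat values. The gaps were not tested, and that of Retn to Adipoq was narrow. Its nearest values, 24.4% and 26.7%, came from 88 over 360 counts and 875 over 3280 counts. Replicate 1 of 3D induced held 13 Retn, 3 Mrap and 105 Adipoq counts.

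The replicates of 3D induced cells disagreed gene by gene. Replicate 2 was 2.96 times replicate 1 for Adipoq, 5.85 times for Retn, 4.61 times for Mrap, 3.85 times for Cidec and 2.07 times for Fabp4. The same ratio was 1.24 for Nampt, 0.926 for Plin1, 0.870 for Cebpa, 0.567 for Apln and 0.258 for the collagen gene Col1a1. The fat-cell genes among them were not shifted by a common factor between the 2 libraries.

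Among the receptors of adiponectin, Adipor2 was at 279 and 290 CPM in 3D induced cells and 122 and 127 CPM in 3D uninduced cells. It was at 509 and 516 CPM in 2D induced cells and 111 and 108 CPM in 2D uninduced cells. Adipor2 rose with induction by 1.19 ± 0.10 (SE) on the log2 scale in 3D (edgeR adjusted p = 0.002422) and by 2.23 ± 0.10 (SE) in 2D (edgeR adjusted p = 4.91e-05). The call in 3D was lost with only the spheroids fitted, where 0 of 14708 tested genes were called. The difference of the 2 effects, -1.04 ± 0.13 (SE), was called (edgeR adjusted p = 0.0296). Over all genes, nearly all calls of such differences were lost when a flat library was left out. Adipor1, the other adiponectin receptor, was not called with induction in 3D (-0.08 ± 0.12 SE, edgeR adjusted p = 0.8678) or in 2D (0.06 ± 0.12 SE, edgeR adjusted p = 0.8264). Cdh13, whose product T-cadherin binds adiponectin multimers, and Cap1, whose product binds resistin in human cells, were called in no comparison of all 8 libraries. Between induced groups the log2 fold change of Cdh13 was -0.45 ± 0.36 (SE), or -1.27 and called without replicate 1 of 3D induced, and that of Cap1 was 0.02 ± 0.16 (SE). Of the 8 tested genes in the whole list of receptors, 2 were called higher with induction in 3D and 3 in 2D, against 0.583% and 3.17% of all tested genes. Of the same 8, 1, Mc2r, was called lower in induced spheroids than in induced flat cultures, against 5.46% of all tested genes.

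All 7 listed genes of adiponectin folding and secretion were tested. None was called with induction in either format. Between induced groups 2 of the 7 were called lower in spheroids, against 5.46% of all tested genes. P4hb, Plod1 and Erp44 had log2 fold changes of -0.85, -0.66 and -0.49 with edgeR adjusted p of 0.002609, 0.01033 and 0.01001, below the 2-fold limit. Ero1l, whose product forms disulfides in the endoplasmic reticulum, had a log2 fold change of -1.79 ± 0.13 (SE, edgeR adjusted p = 0.000372). Gstk1, whose product aids multimer assembly, had one of -1.42 ± 0.40 (SE, edgeR adjusted p = 0.03427). The median log2 fold change of the 7 was -0.66, and that of all tested genes 0.03. Ero1l was at 105 and 123 CPM in 3D induced cells, 93.0 and 113 CPM in 3D uninduced cells, 395 and 397 CPM in 2D induced cells and 226 and 213 CPM in 2D uninduced cells, and it was called lower in spheroids among uninduced cultures too (log2 fold change -1.09 ± 0.13 SE, edgeR adjusted p = 0.002224).

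Of 21 other secreted factors of fat, 15 were tested. With induction in 3D, 1 was called higher, the chemerin gene Rarres2 (log2 fold change 1.21 ± 0.15 SE, edgeR adjusted p = 0.01382), and 1 lower, Grem1, of the BMP antagonist gremlin (-2.25 ± 0.11 SE, edgeR adjusted p = 0.000397). Of all tested genes 0.583% were called higher there and 0.328% lower. Both calls were lost with only the spheroids fitted, where 0 of 14708 tested genes were called. The angiotensinogen gene Agt rose 1.94-fold in 3D (edgeR adjusted p = 0.01859), below the 2-fold limit. Agt was at 522 and 552 CPM in 3D induced and 244 and 309 CPM in 3D uninduced cells. In flat culture it was at 712 and 730 CPM induced and 108 and 113 CPM uninduced. Without replicate 1 or 2 of 3D induced the log2 fold change of Agt in 3D was 1.00 or 0.91. With induction in 2D, 6 were called higher and 2 lower, against 3.17% and 1.34% of all tested genes. They were led by Agt (log2 fold change 2.71 ± 0.14 SE), Grem1 (-1.77 ± 0.11 SE), the lipase inhibitor gene Angptl4 (1.87 ± 0.13 SE) and Rarres2 (2.08 ± 0.15 SE).

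The difference between the 2 induction effects was called for 3 of the 15, all lower in 3D, against 0.341% of all tested genes. These calls depend on the set of libraries: over all genes, nearly all calls of such differences were lost when a flat library was left out. Lcn2, of the siderophore-binding protein lipocalin 2, was at 56.0 and 79.9 CPM in 3D induced cells and 104 and 182 CPM in 3D uninduced cells, and at 30.6 and 33.5 CPM in 2D induced cells and 2.09 and 2.79 CPM in 2D uninduced cells. Uninduced spheroids had the highest values and uninduced flat cultures the lowest. With induction the log2 fold change of Lcn2 was -1.08 ± 0.27 (SE) in 3D, not called (edgeR adjusted p = 0.1242), and Lcn2 rose by 3.74 ± 0.35 (SE) in 2D (edgeR adjusted p = 0.000851). The difference of its effects was -4.81 ± 0.44 (SE) on the log2 scale (edgeR adjusted p = 0.01087), against -1.75 ± 0.19 (SE) for Agt (edgeR adjusted p = 0.01744) and -1.27 ± 0.17 (SE) for Angptl4 (edgeR adjusted p = 0.0328).

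Between induced groups, 4 of the 15 were called higher in spheroids and 4 lower, against 6.94% and 5.46% of all tested genes. Rarres2, Vegfa and Angptl4 had log2 fold changes of -0.92, 0.51 and 0.46 with edgeR adjusted p of 0.004056, 0.009595 and 0.02654, below the 2-fold limit. The chemokine gene Ccl2 was at 63.5 and 189 CPM in 3D induced cells and 13.4 and 10.4 CPM in 2D induced cells. It was higher by 3.41 ± 0.47 (SE) on the log2 scale (edgeR adjusted p = 0.002526), 4.01 without replicate 1 of 3D induced and 2.43 without replicate 2, called in both. Adm, of the vasodilator adrenomedullin, was at 0.406 and 1.58 CPM in 3D induced cells and 9.74 and 9.45 CPM in 2D induced cells. Its difference was -2.59 without replicate 1 of 3D induced and -4.53 without replicate 2, called in both. Of those lower, the log2 fold change was -3.23 ± 0.45 (SE) for Adm (edgeR adjusted p = 0.00257), -1.52 ± 0.14 (SE) for the meteorin gene Metrn (edgeR adjusted p = 0.000773) and -1.35 ± 0.23 (SE) for Nucb2, of the nesfatin precursor (edgeR adjusted p = 0.00572). Adm was also lower in uninduced spheroids than in uninduced flat cultures (-4.33 ± 0.48 SE, edgeR adjusted p = 0.001669), so that, like Apln, it was lower in spheroids in both states. Vegfa, of a growth factor for blood vessels, was higher in uninduced spheroids than in uninduced flat cultures (1.35 ± 0.10 SE, edgeR adjusted p = 0.000402). In that comparison 7 of the 15 were called higher and 1 lower, against 5.42% and 4.02% of all tested genes. Of the adiponectin-related C1q/TNF genes, 3 of 9 were tested. C1qtnf1 was lower with induction in 2D (-1.30 ± 0.30 SE, edgeR adjusted p = 0.036), and C1qtnf12 was higher in uninduced spheroids than in uninduced flat cultures (1.53 ± 0.37 SE, edgeR adjusted p = 0.02591). Comparisons of formats and of induction share libraries, so they are not independent of each other.

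**Figure D3:**
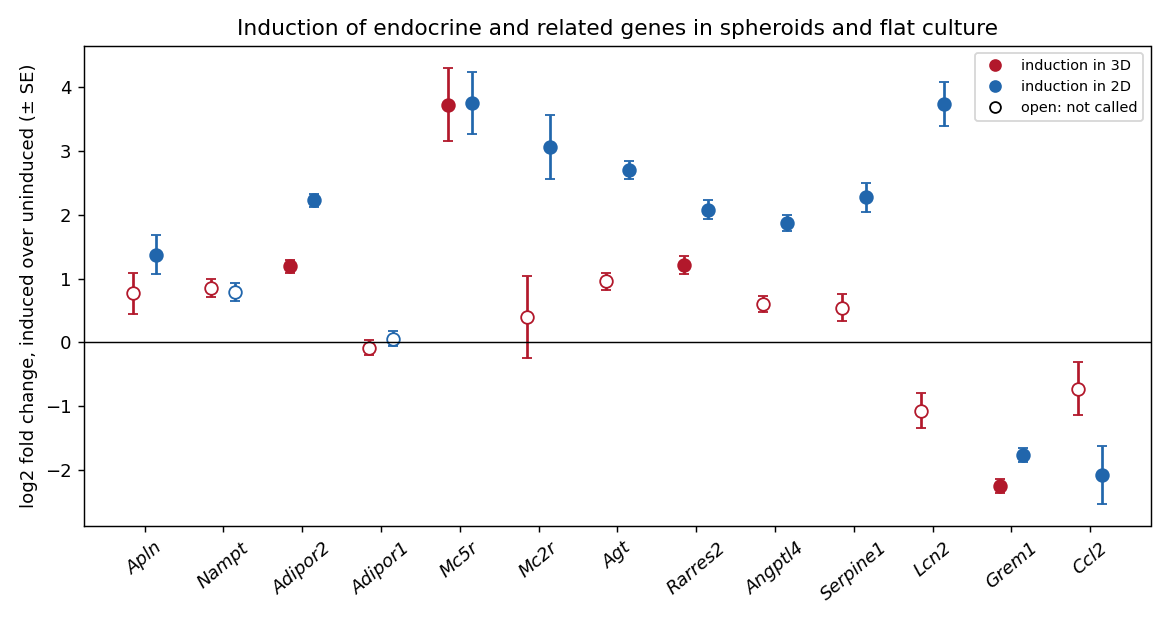
Log2 fold change of induced over uninduced cells in spheroids (3D, red) and flat culture (2D, blue), with error bars of 1 SE, for Apln, Nampt, receptors and other secreted factors. Filled points were called (edgeR adjusted p under 0.05 and at least 2-fold) and open points were not. Adipor2 and Mc5r were called in both formats, Agt and Angptl4 in 2D, and Lcn2 has opposite signs in the 2 formats, the negative one not called.

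Genes with the profile most like that of each adipokine gene were sought among 11100 genes, by the root mean square difference of centred log2 CPM over the 8 libraries. For Adipoq the nearest was Cidec at 0.92, and then G0s2, Fabp4, Gpd1 and Aldh1a7. For Retn and for Mrap it was Gpd1, of glycerol 3-phosphate synthesis, at 0.73 and 0.45, followed by G0s2, an inhibitor of fat cell lipolysis. The profile of Apln was nearest to Cdo1, of cysteine breakdown, at 0.17, then Tgm2, Fzd4, Aoc3 and Pla2g16. That of Nampt was nearest to D10Jhu81e at 0.13, then Fam69b, Selenop, Kitl and Naaa. Cidec was at 65.9 ± 54.8 CPM in 3D induced cells, 0.184 ± 0.157 in 3D uninduced cells, 798 ± 14.2 in 2D induced cells and 0.0249 ± 0.0352 CPM in 2D uninduced cells (SD, n = 2). Cdo1 was at 22.2 ± 6.28, 10.3 ± 3.00, 141 ± 4.79 and 59.7 ± 3.03 CPM in the same 4 groups (SD, n = 2). Distances of genes with counts at 0 depend on the value added before the logarithm, and with 0.5 in place of 2 counts added, 4 of 5 neighbours of Adipoq and of Retn, 3 of 5 of Mrap, and 5 of 5 of Apln and of Nampt were shared.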

How the data were processed

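Counts per gene were deposited by the authors as raw whole numbers; the submitters' processing notes name FastQC 0.11.7, Trimmomatic 0.38, HISAT2 2.1.0, featureCounts 1.6.3 and build mm10. The sources used here do not state their settings, annotation release or strand option, and libraries came from a directional kit, per the labels' protocols. Columns were joined to libraries by the descriptions in the labels; the table names the 2D uninduced columns 2 and 3, and the titles call them replicates 1 and 2. Libraries held 11839374 to 21169390 counts.

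Genes were filtered at a minimum count of 10 by group, scaled by TMM and fitted over all 8 libraries with 1 mean a group in edgeR 4.0.16 (R 4.3.3), by the quasi-likelihood test with Benjamini-Hochberg adjustment, and called at adjusted p under 0.05 and 2-fold. The scripts were tested on simulated data. Alternatives were other scaling, DESeq2 1.42.0, limma 3.58.1 (voom), no filter, a replicate block, the compared groups alone and each library left out, where a lone library was taken to vary like the other groups. Positions and exon lengths are from GENCODE vM21 (GRCm38). Groups at 0 were set to a floor of 3 counts over the group. All 6 genes, their direct receptors and partners, at most 4 called genes per list and comparison with the smallest adjusted p, and 5 genes of nearest profile were named. The genes and lists were chosen with earlier results of these data known.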

Additional observations from a re-analysis of the deposited data

How the results depend on the processing

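Of 366 results for single genes under alternatives, 340 kept their direction and side of the threshold, 13 lost a call, 11 gained one and 2 changed sign. Both were the difference of induction effects of Nampt, called under no alternative, at -0.054 without 3D uninduced replicate 1 and -0.093 without 3D induced replicate 2, within -0.093 to 0.22 over all libraries left out 1 at a time. Calls of the 6 genes with induction in 3D numbered 2 by DESeq2 and 0 with only the compared groups, and 0 to 4 without 1 library. They numbered 1 to 2 for 3D against 2D uninduced and 0 to 1 for the difference of induction effects without 1 library. Over all genes, limma-voom called 88 with induction in 3D, 1348 in 2D and 107 for the difference of effects, and DESeq2 called 241 in 3D and 163 for the difference. Without the filter 336 and 209 were called for induction in 3D and for the difference. With only the compared groups the counts were 0 in 3D by edgeR (885 at an unadjusted p under 0.05), 1213 in 2D and 825 for 3D against 2D induced. Without 1 library they ranged from 24 to 1225 for induction in 3D, 225 to 1169 in 2D, 871 to 3025 for 3D against 2D induced, 552 to 2170 for 3D against 2D uninduced, and 1 to 686 for the difference. By library totals the median log2 fold change of all genes was 0.17 for 3D against 2D induced and 0.20 uninduced. Calls there split into 1391 higher and 610 lower induced and 1172 and 434 uninduced, against 1059 and 833 induced and 827 and 613 uninduced by TMM; the calls of the 6 genes were the same. With the replicate number as a block, 114 genes were called with induction in 3D, 639 in 2D, 1825 for 3D against 2D induced, 1382 uninduced and 39 for the difference, against 139, 689, 1892, 1440 and 58 without it, and the 6 genes kept their calls. Libraries with the same number in their titles had deviations correlated at 0.21 over genes between the 2 spheroid groups. Between the other pairs of groups the correlation was -0.01 to 0.03. The numbers were not taken as pairs. Why calls changed was not tested. Lep, Mrap in spheroids, Mc2r and Mc5r rest on few counts.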
